A study of Mus musculus with 4 samples.

Results

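Astrocytes clear glutamate from the synapse and return it as glutamine, and 5 genes of that cycle were followed here among the 23475 genes listed in the deposited tables. They were chosen by name: the glutamate transporters Slc1a2 and Slc1a3, the glutamine synthetase Glul, the glutamate dehydrogenase Glud1, and Atp1b2, a subunit of the sodium pump. The data are mRNA counts of astrocytes isolated from mouse cerebral cortex on postnatal day 5. There were 4 libraries in 2 groups: 2 labelled WT, from PD1fl/fl mice that carry a floxed PD-1 gene (Pdcd1), and 2 labelled KO, from mice named PD1cKO-Cx3, a conditional PD-1 knockout. The labels do not spell out what drives the deletion beyond "Cx3", which cells lost the gene, or whether animals were pooled.

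The cycle starts at the astrocyte membrane, where Slc1a2 (GLT-1) and Slc1a3 (GLAST) carry glutamate inward together with sodium. The sodium pump, a catalytic alpha subunit with a beta subunit such as Atp1b2, restores the sodium gradient that drives this uptake. Inside the cell Glul joins ammonia to glutamate to make glutamine, which leaves for neurons through SLC38 carriers, while Glud1 sends glutamate into mitochondrial energy metabolism. In the cortex Slc1a3 is the earlier of the transporters, and Slc1a2 becomes the main one as the brain matures.

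The transporters are related genes whose reads can be told apart, whereas Glul and Glud1 have processed pseudogenes, intron-free copies elsewhere in the genome, whose reads can be hard to tell from theirs. The stretches below show how far apart each pair is. They are coding sequence, or the matching part of the copy, from GENCODE M21 transcripts on build GRCm38, each 90 bases within 1 exon, and capitals mark the bases that differ within a pair. For the transporters the most alike stretch is shown, in exon 8 of both genes (Slc1a2 at chr2:102761079-102761168, plus strand, and Slc1a3 at chr15:8642223-8642312, minus strand). For each copy the stretch is one whose identity is nearest to that of the whole alignment.
Slc1a2: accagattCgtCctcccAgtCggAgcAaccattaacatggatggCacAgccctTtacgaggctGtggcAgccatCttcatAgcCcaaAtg
Slc1a3: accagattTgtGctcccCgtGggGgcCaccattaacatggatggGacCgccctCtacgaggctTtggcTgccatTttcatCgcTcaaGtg
Glul: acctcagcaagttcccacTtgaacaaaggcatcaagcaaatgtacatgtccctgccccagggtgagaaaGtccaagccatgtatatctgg
Glns-ps1: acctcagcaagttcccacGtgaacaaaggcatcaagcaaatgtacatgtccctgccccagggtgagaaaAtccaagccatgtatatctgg
Glud1: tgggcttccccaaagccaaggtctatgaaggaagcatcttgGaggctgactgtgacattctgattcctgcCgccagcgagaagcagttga
Glud-ps: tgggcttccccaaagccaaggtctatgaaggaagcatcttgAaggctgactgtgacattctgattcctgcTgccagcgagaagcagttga
Even in their most alike stretch Slc1a2 and Slc1a3 differ at 15 of 90 bases, and over 1235 aligned coding bases they are 65.3% identical with no identical run longer than 17 bases. Glul (chr1:153902953-153903042, exon 2) and its copy Glns-ps1 (chr11:19720361-19720450) differ at 2 of 90 bases here and are 97.8% identical over 1111 bases, with an identical run of 140 bases. Glud1 (chr14:34336109-34336198, exon 8) and Glud-ps (chr7:125075406-125075495) are 97.5% identical over 653 bases, with an identical run of 133 bases. The copies held few counts. Glns-ps1 had 10 and 60 counts in KO replicates 1 and 2 and 16 and 11 in WT replicates 1 and 2, at most 2.32% of the Glul count of a library. Glud-ps had between 39 and 46 counts, at most 0.736% of the Glud1 count. How many reads of a parent gene were lost to ambiguity is not known from count tables.

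The libraries held between 14224519 and 16961160 counts, of which the 5 genes together made up 0.427% to 0.471%. All 12 astrocyte markers were detected in all 4 libraries, and their summed level was 12322 CPM (counts as a share of the library, scaled by TMM, which corrects for differences in composition) and 10279 CPM in KO replicates 1 and 2, and 12061 CPM and 11870 CPM in WT replicates 1 and 2. The preparation also held other cells. The 12 microglia markers summed to 3852 to 4566 CPM under the KO label and 855 to 1262 CPM in WT, and all 12 were higher in both libraries labelled KO with none at 0. The 8 endothelial markers summed to 267 to 526 CPM against 63.3 to 161 CPM, also with all 8 higher and none at 0. The oligodendrocyte markers summed to 675 and 841 CPM against 542 and 363 CPM (4 of 5 tested separated higher, Mobp at 0 in a library), and pericyte and smooth muscle markers to 682 and 406 CPM against 332 and 351 CPM (3 of 5 tested separated higher, Tagln at 0 in a library). The oligodendrocyte precursor markers summed to 2178 and 2192 CPM against 2076 and 1667 CPM (5 of 6 tested above 0 and 1 below). Ependymal markers were few, at 11.1 and 9.81 CPM against 29.5 and 18.5 CPM. The part of these other cells in the values below was not tested, and in bulk RNA fewer cells of a type and less RNA per cell cannot be told apart. KO replicate 2 stood apart in sex-linked transcripts, with 2472 counts of Ddx3y and 0 of Xist where the other libraries had 0 and at least 6732. This is a male pattern in KO replicate 2 and a female one in the others, so sex is unbalanced between the groups. The part of sex in the values below was not tested. For Pdcd1 itself, KO replicate 2 held 20 counts and the WT libraries 0, and the gene was unlisted for KO replicate 1, which allows at most 4, so its counts could not check the labels.

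The transport and recycling genes were close to level between the groups. None of the 5 passed the test (quasi-likelihood test of edgeR at an adjusted p under 0.05, by Benjamini and Hochberg), where 3 of the 17696 genes tested did (0.017%). At an unadjusted p under 0.05 the count of members was 0 of 5, where 8.29% of all genes fell under it, and DESeq2 and limma-voom each called 0 of 5, where over all genes they called 365 (2.03%) and 28 (0.158%). Their log2 fold changes ran from -0.16 to 0.18, with a median of -0.07 beside -0.00027 over all genes tested. In 3 of the 5 the libraries labelled KO did not overlap with WT, 1 higher and 2 lower. Over all genes 39.6% were separated in this way, 21.2% higher and 18.4% lower, and among the 2476 genes with a mean of at least 100 CPM 43.2% were. Beside these shares, 3 of 5 is not read as a result about the members.

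**Figure D1:**
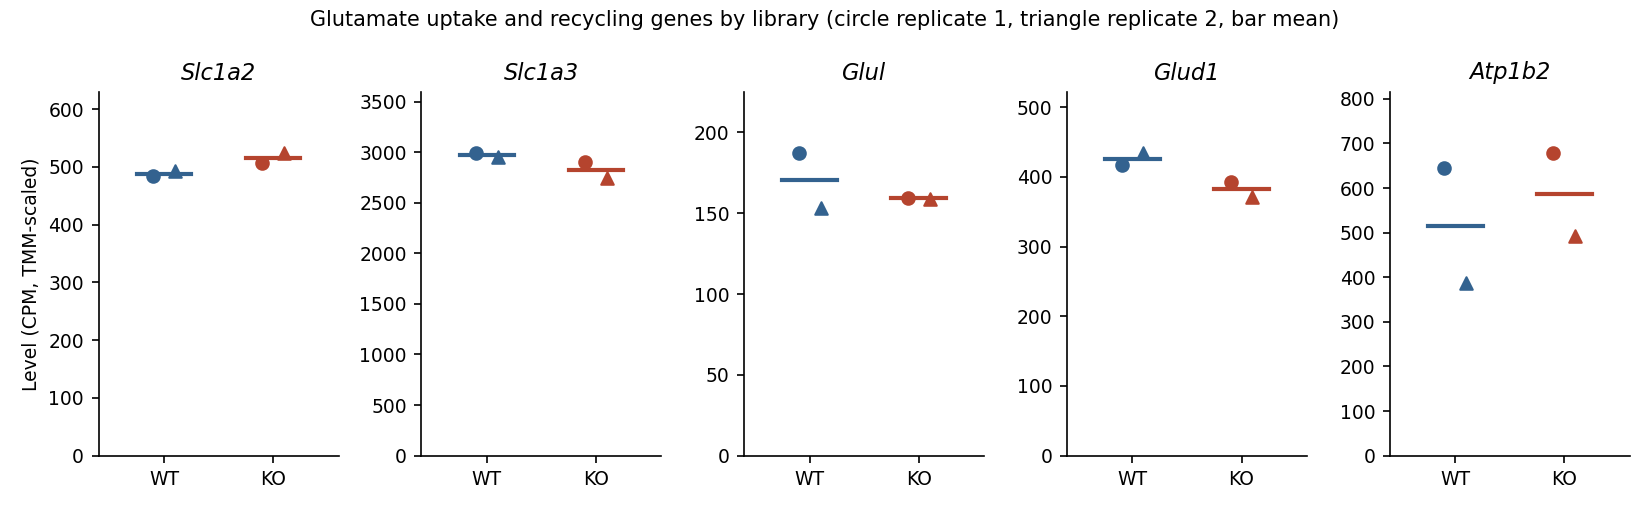
Level in CPM (TMM-scaled, axes from 0) of each gene in every library, with circles for replicate 1, triangles for replicate 2 and a bar at the group mean. Slc1a2, Slc1a3 and Glud1 hold within narrow bands with a small gap between the groups, and Glul is raised in 1 WT library. Atp1b2 is spread within both groups, from 493 to 679 CPM under the KO label and from 387 to 645 CPM in WT.

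Slc1a3 (ENSMUSG00000005360, chromosome 15, 8634124 to 8710764, minus strand, protein coding) was the most abundant of the set. KO replicates 1 and 2 had 2907 CPM and 2744 CPM, and WT replicates 1 and 2 had 2995 CPM and 2952 CPM. Both libraries labelled KO lay just below both WT libraries, with KO replicate 2 the lowest. The group means were 2825 ± 115 CPM and 2974 ± 30.7 CPM (SD, n = 2 each). The log2 fold change was -0.07 ± 0.065 (SE), with a 95% interval of -0.23 to 0.09 (edgeR, adjusted p = 0.87). On the linear scale that interval runs from 0.85-fold to 1.06-fold, the narrowest of the 5. Scaled instead to the summed astrocyte markers, the log2 fold change was 0.02, so the direction of Slc1a3 depends on the scaling. Gm37310, a gene annotated on the same strand inside Slc1a3, had counts equal to at most 1.08% of those of Slc1a3.

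Slc1a2 (ENSMUSG00000005089, chromosome 2, 102658659 to 102790784, plus strand) encodes the transporter that comes to carry most glutamate uptake in the mature forebrain. It had 506 CPM and 525 CPM in KO replicates 1 and 2, and 484 CPM and 492 CPM in WT replicates 1 and 2. The libraries labelled KO were both higher, by a margin of the same order as the gap between replicates. The means were 515 ± 13.3 CPM and 488 ± 5.4 CPM (SD, n = 2 each), a log2 fold change of 0.08 ± 0.097 (SE; 95% interval -0.16 to 0.32; edgeR, adjusted p = 0.93). Gm13872, an antisense gene inside Slc1a2 (chromosome 2, 102737907 to 102746760, minus strand), had 4.44 CPM and 4.48 CPM under the KO label and 6.10 CPM and 13.3 CPM in WT. Its log2 fold change was -1.12 ± 0.54 (SE; edgeR, adjusted p = 0.68). The sources used here do not give whether counting used strand, so reads of the antisense gene and of Slc1a2 cannot be told apart where they overlap. Its counts equalled at most 2.71% of those of Slc1a2.

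Glul (ENSMUSG00000026473, chromosome 1, 153899944 to 153909723, plus strand) is the enzyme that makes glutamine and is held largely by glia in the brain. Its level was 160 CPM and 159 CPM under the KO label, 188 CPM in the first WT replicate and 154 CPM in the other. The libraries labelled KO were nearly equal and fell between the WT libraries, so the groups overlapped. The gap between the WT libraries was larger than counting error. As CPM of the library total, without TMM, WT replicate 1 had 187 (exact 95% binomial interval 180 to 193) and WT replicate 2 had 155 (149 to 162), and these intervals cover counting error only. The log2 fold change was -0.10 ± 0.15 (SE; 95% interval -0.47 to 0.27; edgeR, adjusted p = 0.95). Without WT replicate 1 it was 0.05, and without WT replicate 2 it was -0.23. Teddm2, an antisense gene that overlaps the start of Glul, had counts equal to at most 3.95% of those of Glul.

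Glud1 (ENSMUSG00000021794, chromosome 14, 34310727 to 34345144, plus strand) encodes the mitochondrial enzyme that turns glutamate into alpha-ketoglutarate. It had 393 CPM and 371 CPM in KO replicates 1 and 2, and 417 CPM and 435 CPM in WT replicates 1 and 2. Both libraries labelled KO were below both WT libraries. The means of 382 ± 14.9 CPM and 426 ± 12.5 CPM (SD, n = 2 each) gave a log2 fold change of -0.16 ± 0.11 (SE; 95% interval -0.42 to 0.10), which did not pass (edgeR, adjusted p = 0.805). It ran from -0.19 to -0.12 when each library was left out in turn. Glud1 was thus below 0 in each of these fits, at a size the test does not tell from the spread between libraries.

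Atp1b2 (ENSMUSG00000041329, chromosome 11, 69599736 to 69605942, minus strand) encodes the beta subunit first known as the adhesion molecule on glia. Replicate 1 had 679 CPM under the KO label and 645 CPM in WT, and replicate 2 had 493 CPM and 387 CPM. In both groups replicate 1 was the higher library, and the groups overlapped. The log2 gap between replicates was 0.46 in the libraries labelled KO and 0.74 in WT, both larger than the log2 fold change between groups of 0.18 ± 0.27 (SE; 95% interval -0.49 to 0.86; edgeR, adjusted p = 0.95). Among the 2476 genes with a mean of at least 100 CPM, 97 (3.92%) had a within-group gap at least as large as that of Atp1b2. Its log2 fold change was -0.06 without KO replicate 1, -0.14 without WT replicate 2, 0.40 without KO replicate 2 and 0.60 without WT replicate 1. The direction thus rested on which libraries were used.

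**Figure D2:**
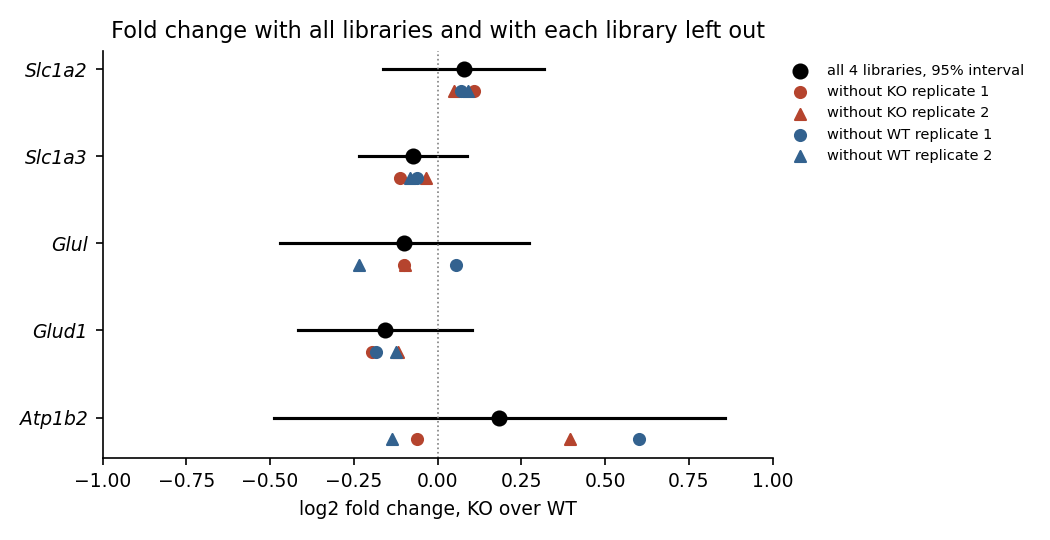
Log2 fold change of the libraries labelled KO over WT for the 5 genes, with all 4 libraries (black point, line for the 95% interval) and with each library left out (coloured points below). The values of Slc1a2, Slc1a3 and Glud1 stay on 1 side of 0, while those of Atp1b2 run from -0.14 to 0.60 and Glul crosses 0 without WT replicate 1.

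The 95% intervals, which are not adjusted over all genes, show what size of change the values still allow. For all 5 genes the interval lay within 1 of 0 on the log2 scale, which leaves out a 2-fold change in either direction. The same held for 39.5% of all genes tested and for 94.9% of genes with a mean of at least 100 CPM, so this precision is that of well-counted genes. The widest interval, that of Atp1b2, still allowed 0.71-fold to 1.81-fold. That of Slc1a2 allowed 0.89-fold to 1.25-fold, and that of Glud1 allowed 0.75-fold to 1.07-fold.

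Ratios between genes of 1 library do not depend on how that library is scaled, and were compared without a test. For every 100 counts of Slc1a3, Slc1a2 had 17.4 and 19.1 counts in KO replicates 1 and 2, and 16.2 and 16.7 counts in WT replicates 1 and 2. Both libraries labelled KO were higher, and the log2 ratio differed by 0.15 between the group means, with SDs of 0.096 and 0.031. Leaving out KO replicate 2 gave a difference of 0.08, and leaving out KO replicate 1 gave 0.22. For every 100 counts of Slc1a3, Glud1 had 13.5 counts in each library labelled KO and 13.9 and 14.7 counts in WT. Glul had 5.49 and 5.79 counts against 6.26 and 5.20, with overlap. Atp1b2 had 23.4 and 18.0 counts against 21.5 and 13.1, which kept the wide spread between replicates seen in its CPM. Its log2 difference of 0.29 became -0.07 when WT replicate 2 was left out and 0.65 when WT replicate 1 was.

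Set against the 12 astrocyte markers (none of them a member), the separations of the transporters and Glud1 were gone. Of these markers 9 were themselves below 0 and 3 above, with a median log2 fold change of -0.07, so they are not a fixed reference. For every 100 marker counts Slc1a3 had 23.6 and 26.7 counts in KO replicates 1 and 2 and 24.8 and 24.9 counts in WT, so the libraries labelled KO fell on both sides of WT. Slc1a2 had 4.11 and 5.10 counts against 4.02 and 4.14, and Glud1 had 3.19 and 3.61 counts against 3.46 and 3.66. KO replicate 2, with the lowest summed marker level, had the higher value of the libraries labelled KO for every member but Atp1b2. Atp1b2 had 5.51 and 4.80 counts against 5.35 and 3.26, a log2 difference of 0.30 that was -0.06 without WT replicate 2.

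**Figure D3:**
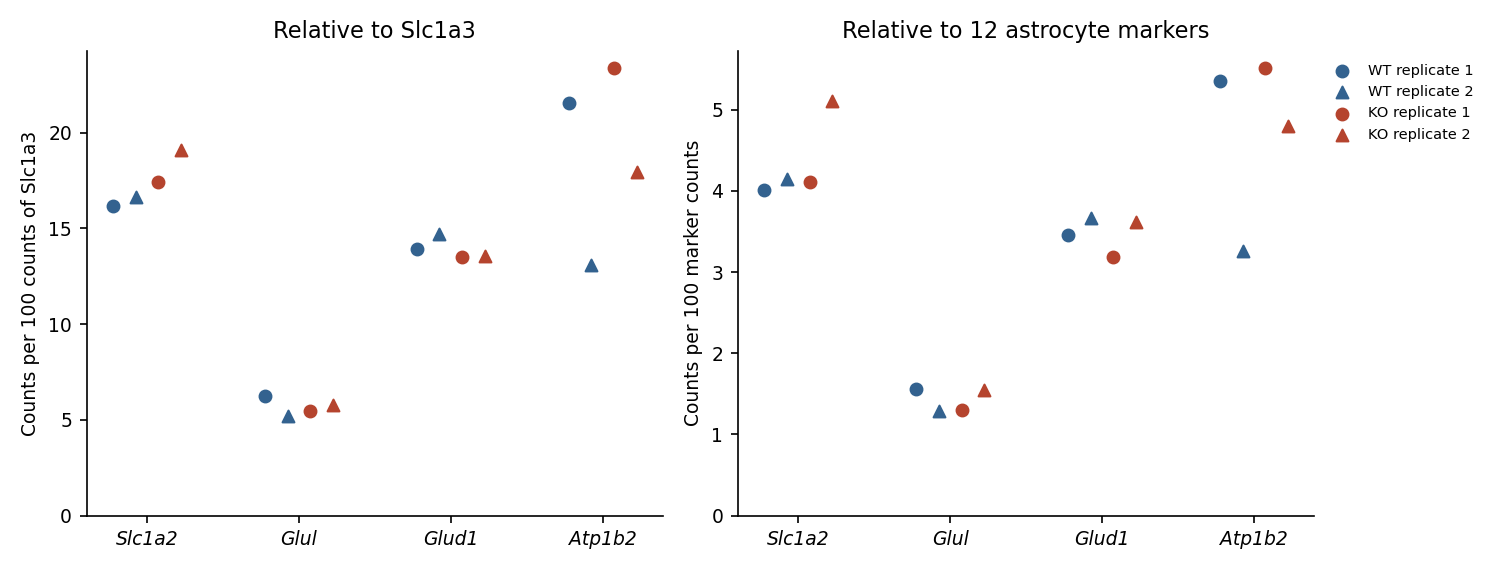
Counts of 4 genes per 100 counts of Slc1a3 (left) and per 100 counts of the 12 astrocyte markers (right) in each library, both axes from 0. Against Slc1a3 the libraries labelled KO are both higher for Slc1a2 and both lower for Glud1, while against the markers both genes overlap between the groups.

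Levels of different genes were compared per length, as TPM, the share of transcripts once counts are divided by length, from the counts and the merged exon length of each gene in GENCODE M21. Slc1a3 was highest in every library, at 1297 TPM on average and never below 1220 TPM. Atp1b2 followed at 515 TPM and Glud1 at 367 TPM, and their ranges of 364 to 633 TPM and 335 to 397 TPM overlapped. Glul came next at 190 TPM (178 to 216) and Slc1a2 last at 146 TPM (141 to 152), without overlap. The lower part of this order rests on the gene length used, and Slc1a2 has very long annotated exons. With the median length of the coding transcripts, an alternative chosen after the data were seen, Slc1a3 was still the highest at 1999 TPM. Atp1b2, Slc1a2, Glul and Glud1 followed at 484, 432, 408 and 356 TPM, each range overlapping the next. For Glul that median, 681 bases, is shorter than its coding sequence of 1119 bases. Its level and rank by this length are therefore not reliable.

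The sodium pump is built from 1 alpha and 1 beta subunit, and Atp1b2 was the main beta subunit in each library. By TPM it made up 65.9% and 60.2% of the beta subunits Atp1b1, Atp1b2 and Atp1b3 in KO replicates 1 and 2, and 64.7% and 53.2% in WT. The share overlapped between the groups. Atp1b1, a beta subunit that neurons also use, made up 10.97% and 11.4% against 13.3% and 21.5%, without overlap and with no test of the shares.

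Of 40 further genes of glutamate handling, 38 were tested. None passed (edgeR), 8 had an unadjusted p under 0.05, 5 higher and 3 lower, beside 8.29% of all genes, and DESeq2 and limma-voom also called 0. Slc1a7 and 1 pump subunit were not analysed here. Their groups were separated for 9 higher and 6 lower genes of the 38, beside 39.6% of all genes, and the median log2 fold change was -0.01.

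Among the other carriers of glutamate and neutral amino acids, 4 of 8 tested genes were above 0 and 4 below, with a median of -0.0037 (5 above and 3 below, and a median of 0.10, scaled to astrocyte markers). With each library left out in turn, the median ran from 0.08 to 0.20. The most abundant was Slc1a4, a carrier of serine and other neutral amino acids, with a log2 fold change of -0.13 ± 0.14 (SE), and then Slc7a11, the cystine and glutamate exchanger, with -0.20 ± 0.56. Slc17a8, a vesicular glutamate transporter, had 15 and 32 counts in KO replicates 1 and 2 and 0 in both WT libraries. The mean of the libraries labelled KO was 7.43-fold a floor of 3 counts per WT library. That ratio makes no allowance for the spread between the libraries labelled KO and is not a lower bound. Slc17a8 did not pass (edgeR, adjusted p = 0.455). Slc1a6, a neuronal glutamate transporter, had 7 counts in each library labelled KO and 11 and 20 in WT (log2 fold change -1.22 ± 1.29 SE). Slc17a6, the vesicular transporter VGLUT2 of neurons, was also named once its values were known, with 42.9 CPM and 55.8 CPM against 26.9 CPM and 32.7 CPM (log2 fold change 0.73 ± 0.25 SE; edgeR, adjusted p = 0.50).

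The 5 glutamine carriers had log2 fold changes above 0 with all libraries, with a median of 0.08 (0.17 scaled to astrocyte markers), but without KO replicate 1 only 2 of 5 were above 0 and the median was -0.02. Without either WT replicate 4 of 5 were above 0. Slc38a3, which releases glutamine from astrocytes, had 310 CPM and 257 CPM under the KO label and 276 CPM and 254 CPM in WT, with a log2 fold change of 0.10 ± 0.14 (SE). Slc38a1, through which neurons take glutamine up, had 0.04 ± 0.15. Slc38a5, another glutamine exporter, had 53.4 CPM and 15.5 CPM in KO replicates 1 and 2 and 13.7 CPM and 6.95 CPM in WT. Its log2 fold change of 1.73 ± 0.65 (SE) did not pass (edgeR, adjusted p = 0.55) and ran from 0.59 to 2.37 when each library was left out. The 8 endothelial markers, at summed levels of 526 and 267 CPM against 161 and 63.3 CPM, ranked the libraries in the same order, and their part in the level of Slc38a5 was not tested.

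Of the 13 enzymes that make or use glutamate, 10 were below 0 and 3 above, with a median of -0.08, but scaled to astrocyte markers 6 were below and 7 above, with a median of 0.01. Over libraries left out, 7 (WT replicate 1 left out) to 11 (WT replicate 2 left out) lay below 0. The most abundant were the ornithine aminotransferase Oat, with a log2 fold change of -0.19 ± 0.11 (SE), and the mitochondrial aspartate aminotransferase Got2, with -0.03 ± 0.11. The glutamate decarboxylases, which make GABA in interneurons, were named after their values were seen. Gad2 had 102 CPM and 123 CPM under the KO label and 174 CPM and 167 CPM in WT (log2 fold change -0.60 ± 0.15 SE; edgeR, adjusted p = 0.38), and Gad1 had -0.42 ± 0.17 (adjusted p = 0.58). The 8 neuron markers summed to 2287 and 2378 CPM under the KO label and 2504 and 2890 CPM in WT. Of these, 6 were below 0 and 2 above, with none at 0 counts. The neuronal Slc17a6, given above, lay the other way, at a log2 fold change of 0.73. The part of neurons in these levels was not tested.

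Of the 8 further pump subunits and regulators tested, 3 were above 0 and 5 below, with a median of -0.16 (-0.07 scaled to astrocyte markers). Without WT replicate 1, 5 were above 0 and the median was 0.08, and it was -0.02 without KO replicate 2 and -0.30 without WT replicate 2. Fxyd6, a pump regulator, was the most abundant, with a log2 fold change of -0.15 ± 0.13 (SE). Fxyd7, another regulator, was separated between the groups at 3.12 CPM and 2.58 CPM against 1.66 CPM and 0.765 CPM (log2 fold change 1.23 ± 0.90 SE; edgeR, adjusted p = 0.83). Atp1b1, chosen once its level was known, had a log2 fold change of -0.49 ± 0.18 (SE; edgeR, adjusted p = 0.55).

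The last list, of 4 genes, had a median of 0.24, which ran from 0.09 to 0.38 over libraries left out. In it the metabotropic receptor Grm3 had a log2 fold change of -0.15 ± 0.14 (SE) and Arl6ip5, a binding partner of glutamate transporters, had 0.22 ± 0.13. Kcnj10, the glial potassium channel Kir4.1 that holds the membrane potential used for uptake, was named after its values were seen. It had 58.3 CPM and 60.2 CPM under the KO label and 40.4 CPM and 35.1 CPM in WT. Its log2 fold change of 0.65 ± 0.20 (SE) did not pass (edgeR, adjusted p = 0.455). The markers of oligodendrocytes and of their precursors, given above, were also higher under the KO label in most cases. The part of these cells in the level of Kcnj10 was not tested.

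**Figure D4:**
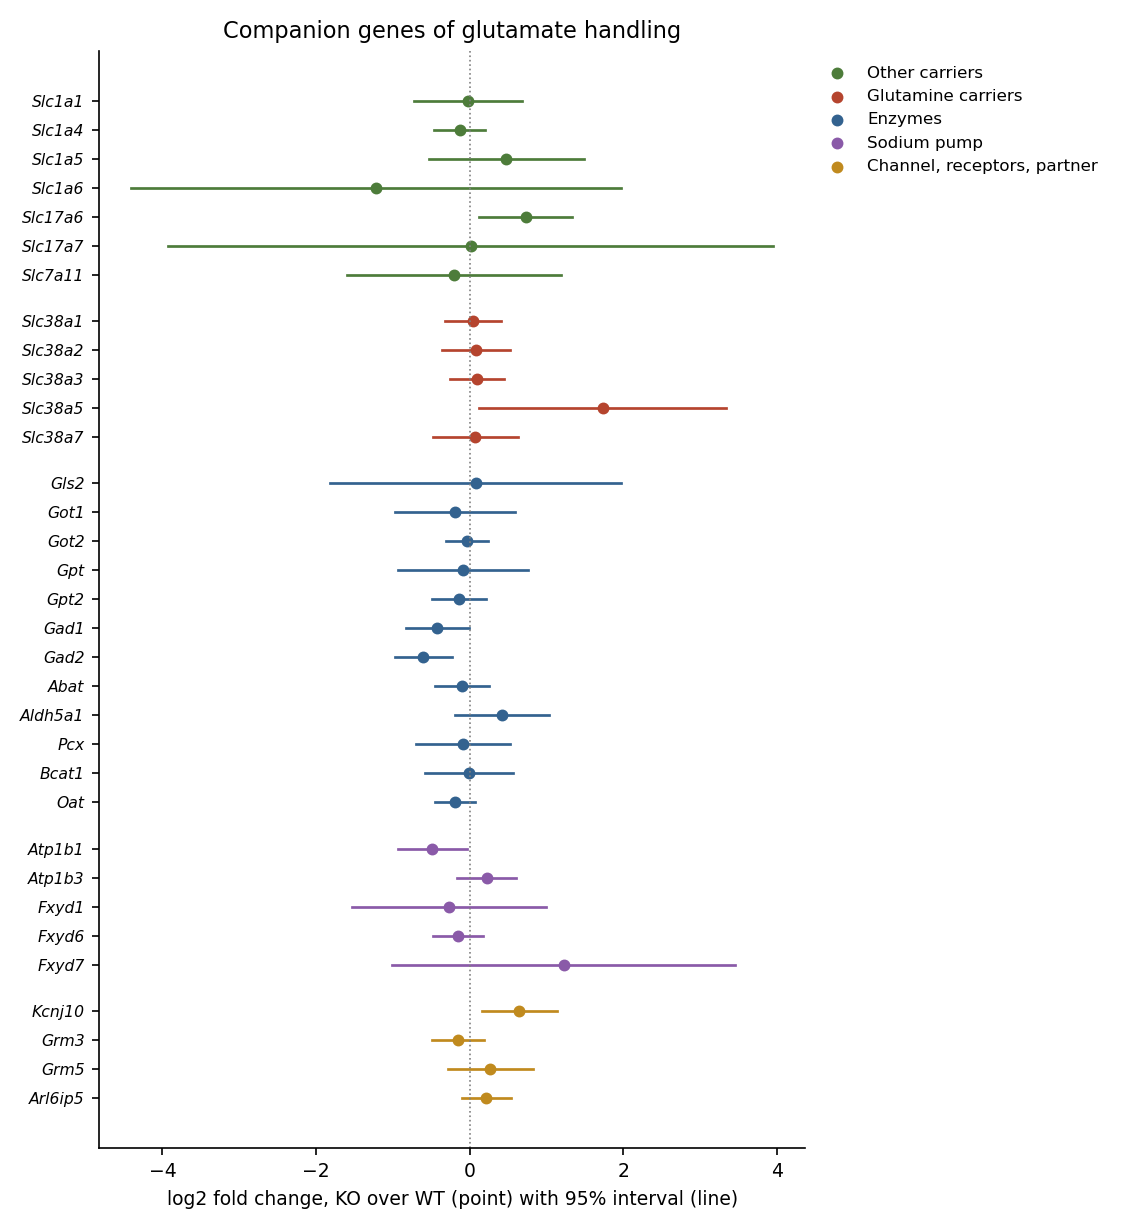
Log2 fold change of the libraries labelled KO over WT with its 95% interval for companion genes of glutamate handling, coloured by list. Slc17a8, with 0 counts in WT, and a few tested genes not reported here are left out. Most points lie near 0, with a few farther out, such as Slc38a5 at 1.73 and Kcnj10 at 0.65. The intervals of both leave out 0 but are not adjusted over all genes, and no companion gene passed.

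The genes nearest to each member in their pattern over the 4 libraries were taken by the root mean square distance of centred log2 CPM, among the other 2475 genes with a mean of at least 100 CPM. For Slc1a2 they were Trp53bp1, Ogt and Ugdh (distances 0.0046 to 0.014), and for Slc1a3 they were Syt11, Map1lc3a and Tmsb10 (0.011 to 0.016). For Glul they were Rnf20, Abat and Maged1 (0.014 to 0.019). Abat, the GABA transaminase, which forms glutamate, had 217 CPM and 210 CPM under the KO label and 251 CPM and 207 CPM in WT, again with WT replicate 1 the highest. For Glud1 they were Ccnt2, Ddx47 and Rlbp1 (0.0087 to 0.017). For Atp1b2 they were Ccar2, Scarb1 and Rbbp4, at larger distances of 0.063 to 0.073, and in all 3 WT replicate 2 was the lowest library. Over 4 libraries many genes share a pattern, so these names are a description only.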

How the data were processed

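Astrocyte mRNA of 4 libraries, 2 labelled KO and 2 labelled WT, was analysed. HTSeq 0.6.0, TopHat2 2.0.12 and Bowtie2 2.2.3 are listed, per the submitters' processing notes, without their roles, and mm9 as the build. Of 23475 gene positions in the files, 90.6% equal GENCODE M21 on GRCm38, so coordinates are given on GRCm38. The authors deposited 4 tables, each with whole-number counts per gene for 1 KO and 1 WT library, per the file headers. The authors' deposited log2 fold change is a ratio of 2 single libraries, and the deposited p-value comes from a test the file headers do not name.

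The tables were joined by gene. A count of 1 library never differed between tables. A gene with no listed count was set to 0 (at most 4). Replicates differed by more than sampling noise (chi-square per gene 17.9 between KO and 27.0 between WT libraries). Whether each library is its own animal is not in the labels. The sex-linked counts show that the libraries labelled KO did not come from the same animals, so their spread is not technical alone. That between the WT libraries may be technical. A p-value here reflects only library-to-library spread.

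Genes kept by filterByExpr (minimum count 10) were fitted with edgeR 4.0.16 in R 4.3.3 (TMM, quasi-likelihood test, 2 residual degrees of freedom), with Benjamini-Hochberg adjustment over 17696 genes at 0.05. All 5 members passed the filter. A standard error is the size of the fold change over the root of F, and 95% intervals use the test's degrees of freedom. The fit was also run on simulated counts with known changes, and that outcome is not reported here. Alternatives were DESeq2 1.42.0, limma-voom (limma 3.58.1), other scalings, filters and thresholds, the replicate number as a block, and each library left out. Named companion genes were the 2 most abundant of each list, any that passed, and any separated between the groups with a log2 fold change over 1 in size. A few companion genes are counted in their lists but not reported here by name. The nearest 3 genes per member were taken by pattern. Members and lists were chosen with earlier results of these data known.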

Additional observations from a re-analysis of the deposited data

How the results depend on the processing

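None of the 5 genes passed under any of 13 alternative fits each, nor did any of the 38 companion genes. Slc1a2 (log2 fold change 0.05 to 0.17) and Glud1 (-0.19 to -0.07) kept their direction in all 13. Slc1a3 was 0.017 when scaled to astrocyte markers and ran from -0.11 to -0.03 over libraries left out. Glul was 0.054 without WT replicate 1 and ran from -0.23 to 0.05, and Atp1b2 was -0.06 without KO replicate 1 and -0.14 without WT replicate 2 and ran from -0.14 to 0.60. Scaling to astrocyte markers moved the median of all genes from -0.00027 to 0.09. Over all genes the number past the threshold was 3, and it was 365 with DESeq2 (310 higher, 55 lower), 28 with limma-voom, 6 scaled to astrocyte markers, 56 without a filter on low counts, 68 at a mean CPM of at least 5 and 15 at an adjusted p under 0.10. It ran from 0 (without KO replicate 2) to 42 (without WT replicate 2) over libraries left out, with 7 without KO replicate 1 and 1 without WT replicate 1. The share of higher against lower calls cannot be compared at such counts. With the replicate number as a block there were 4, and the log2 fold change of Atp1b2 was 0.21 (unadjusted p = 0.12, adjusted p = 0.76). The labels give no reason for the numbers to pair libraries, and the deviations of same-numbered libraries correlated at 0.032 over all genes. Leaving out a library in groups of 2 cannot test the ratios and values per marker count. Of these, the log2 difference of Atp1b2 turned sign without WT replicate 2, that of Glul to Slc1a3 was 0.02 without KO replicate 1 and 0.12 without WT replicate 1, and per marker count Slc1a3 ran from -0.08 to 0.10, Glul from -0.14 to 0.13 and Glud1 from -0.16 to 0.02. With 1 marker left out Slc1a3 ran from -0.02 to 0.04 and Glul from -0.04 to 0.03. With 2 libraries a group, the spread between libraries and not counting depth set the width of the intervals of the 5 members. For companion genes with few counts, such as Slc1a6 (log2 fold change -1.22 ± 1.29 SE), counting error widens the interval too. A change inside an interval cannot be left out. The intervals are not adjusted over all genes, so they do not mark what the test could detect. The 95% interval of Gad2, -0.98 to -0.23, left out 0, and Gad2 still did not pass (edgeR, adjusted p = 0.38). The same held for Slc17a6, Slc38a5, Gad1, Atp1b1 and Kcnj10 among the companion genes named.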

Other observations

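In the authors' deposited table for KO replicate 1 against WT replicate 2, Atp1b2 had a log2 fold change of 0.79 with p = 1.06e-254. In the authors' deposited table for KO replicate 2 against WT replicate 1 the same gene had a log2 fold change of -0.39 with p = 4.21e-76. The pairs differ in direction, and each p-value compares 2 single libraries. In the authors' deposited tables Glud1 was below 0 in all 4 pairs (log2 fold change -0.25 to -0.09), Slc1a3 was below 0 in all 4 (-0.13 to -0.05) and Slc1a2 was above 0 in all 4 (0.01 to 0.11). The 4 pairs share their libraries and are not 4 independent comparisons.

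Glns-ps1, the copy of Glul, had 60 counts in KO replicate 2 and between 10 and 16 in the other libraries, while Glul itself was nearly equal in both libraries labelled KO. Its log2 fold change of 1.32 ± 1.22 (SE) did not pass (edgeR, adjusted p = 0.88). Since the copy and its parent are 97.8% identical over the aligned bases, which gene these reads came from is uncertain.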
